A study of Homo sapiens with 16 samples.

Results

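The RecQ helicases are a family of 5 human genes, RECQL, BLM, RECQL4, WRN and RECQL5, and all 5 were listed among the 12676 genes of an RNA-seq count table from YEATS2 knockdown cells. The genes were taken by symbol. RECQL was selected on its log2 fold change, since it was among the genes with the largest decreases in this same comparison, and the other 4 were taken as the rest of its family. The values of RECQL are therefore given as a description without a test. RecQ proteins use ATP to unwind DNA, and they act on stalled replication forks, recombination intermediates and other irregular DNA structures. Inherited loss of BLM, WRN or RECQL4 causes Bloom, Werner or Rothmund-Thomson syndrome, disorders with unstable genomes and a raised risk of cancer. Dividing cells depend on these enzymes mainly while DNA is copied, when forks have to be protected, restarted or disentangled.

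The cells were H1299, an epithelial line from a human non-small cell lung carcinoma. One group of 2 libraries (shCtrl) came from cells infected with pLKO virus carrying a non-targeting shRNA (shNT), and the other group of 2 libraries (shYEATS2) from cells infected with pLKO virus carrying an shRNA against YEATS2, which encodes an acetyl-histone reader of the ATAC acetyltransferase complex. Both groups received 8 µg/ml polybrene during infection, then 2 µg/ml puromycin after 48 h, and were kept under selection for 4 to 7 days by the labels (the paper's methods give a shorter selection). The comparison asks how transcript levels differ when YEATS2 is depleted. The study describes a single knockdown construct for these libraries, which the paper names and the labels do not. The paper also reports RNA-seq with an independent shRNA that partially depleted YEATS2, where only part of the decreased genes were shared. Whether the decreases given here recur with that shRNA was not tested. The paper's legend calls the replicates compared here independent biological replicates, while the labels do not say whether they were separate cultures. The p-values measure the spread between the libraries compared here only. The libraries held 34718921 to 39417787 counted reads. YEATS2 itself had 4482 and 4104 scaled reads in the control libraries and 665 and 673 in the knockdown libraries. Of the 6 markers fixed for H1299 and epithelial cells, 5 were listed and EPCAM was not. None of 7 markers of blood, endothelial and liver cells was listed. Cells of one line are compared in bulk, so fewer cells in a given state and less RNA per cell cannot be told apart.

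Scaled reads are the deposited counts brought to a common library size with TMM factors, and the log2 fold change is the shYEATS2 level over the shCtrl level, so negative values are lower in the knockdown. A gene was called at a false discovery rate (FDR) under 0.01 in the quasi-likelihood test of edgeR, adjusted by the Benjamini-Hochberg method over all 12676 genes, and errors on means are SD over 2 libraries.

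The levels of 4 of the 5 RecQ transcripts were lower in the knockdown cells and that of RECQL5 was not. The order by size of the difference was RECQL, BLM, RECQL4, WRN and RECQL5. RECQL stood at 16.7% of its control level. BLM, RECQL4 and WRN were all called lower, which is 3 of the 4 members that were not picked for a fall. Of all genes, 12.5% were called lower and 12.9% were called higher. Leaving RECQL aside, both knockdown libraries lay below both control libraries for 3 of the other 4 members, against 39.8% of all genes, and above both control libraries for none of the 4, against 39.7% of all genes. The median log2 fold change of these 4 members was -0.82, and that of all genes was -0.00188.

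RECQL encodes the most abundant RecQ protein of many human cells, a helicase that helps stalled forks to restart. It had 6360 and 6189 scaled reads in the control libraries and 1352 and 742 in the knockdown libraries. The control libraries lay close together, the knockdown libraries did not overlap them, and knockdown replicate 1 held 1.82 times as many reads as knockdown replicate 2. The means were 6274 ± 121 and 1047 ± 432 scaled reads (SD, n = 2 each), a log2 fold change of -2.59 with a standard error of 0.26. With each library left out in turn, this value lay between -3.08 and -2.21. Among genes called lower with a mean of at least 100 scaled reads, RECQL ranked 5 by size. UTP14A (-2.72) and YEATS2 (-2.68) stood just above it, and RIBC2 (-2.53) and TMCC3 (-2.30) just below.

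BLM is the helicase of the dissolvasome, the complex that takes apart double Holliday junctions without crossing over. BLM had 1889 and 1666 scaled reads in the control libraries and 776 and 523 in the knockdown libraries. The groups did not overlap, and knockdown replicate 2 was again the lowest library. BLM fell by 1.45 on the log2 scale (standard error 0.19, 95% interval -1.903 to -1.004, FDR = 0.00200, edgeR quasi-likelihood test, Benjamini-Hochberg adjusted). Of all genes, 1.27% had a log2 fold change as low or lower.

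RECQL4 takes part in the start of DNA replication, where its N-terminal part binds MCM10. Its scaled reads were 2683 and 2866 in the control libraries and 1442 and 1217 in the knockdown libraries. The groups were well apart, and the spread within each was small beside the gap. RECQL4 fell by 1.06 on the log2 scale (standard error 0.11, 95% interval -1.33 to -0.79, FDR = 0.00130, edgeR quasi-likelihood test, Benjamini-Hochberg adjusted).

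WRN is the only RecQ protein that also has an exonuclease domain, and it works at forks and telomeres. WRN had 897 and 989 scaled reads in the control libraries and 672 and 592 in the knockdown libraries. The groups did not overlap, but the gap was the narrowest of the 4 lower members. WRN fell by 0.58 on the log2 scale (standard error 0.12, 95% interval -0.87 to -0.29, FDR = 0.00946, edgeR quasi-likelihood test, Benjamini-Hochberg adjusted), just inside the threshold. The call was lost without shCtrl replicate 1 (log2 fold change -0.65, FDR = 0.0247), without shCtrl replicate 2 (-0.50, FDR = 0.0600) and without shYEATS2 replicate 2 (-0.49, FDR = 0.0297), all in the same test. It was also lost with library totals in place of TMM (-0.46, FDR = 0.0210), a scaling that moved the median of all genes to 0.118 and the share of calls that were higher from 50.8% to 67%.

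RECQL5 binds RNA polymerase II and limits recombination. RECQL5 had 1350 and 1419 scaled reads in the control libraries and 1488 and 1312 in the knockdown libraries. The knockdown libraries lay on either side of the controls. The log2 fold change was 0.02 (standard error 0.11, 95% interval -0.24 to 0.27, FDR = 0.917, edgeR quasi-likelihood test, Benjamini-Hochberg adjusted), so a decrease of more than 0.24 lay outside the interval. Its sign turned without shCtrl replicate 1 (-0.02) and without shYEATS2 replicate 1 (-0.08).

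**Figure D1:**
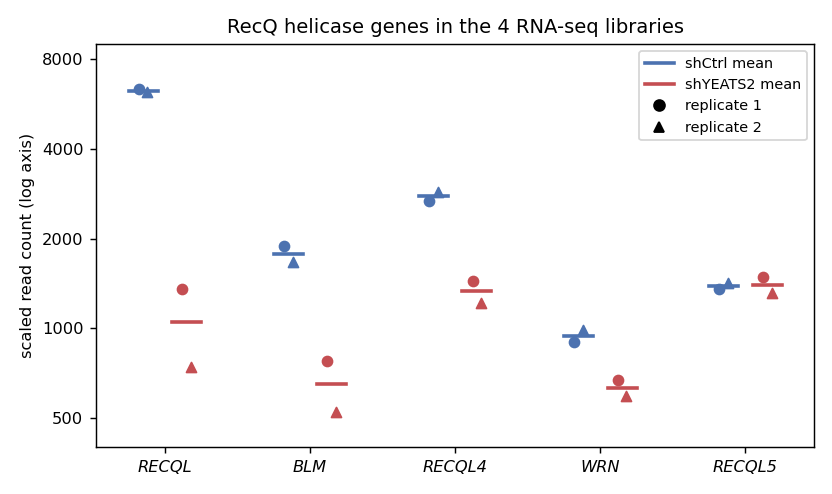
Scaled read counts of the 5 RecQ genes (log axis) in the 2 shCtrl and 2 shYEATS2 libraries, with circles for replicate 1, triangles for replicate 2 and bars for the mean of each group. The groups are apart for RECQL (6360 and 6189 against 1352 and 742), BLM, RECQL4 and WRN, and overlap for RECQL5.

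**Figure D2:**
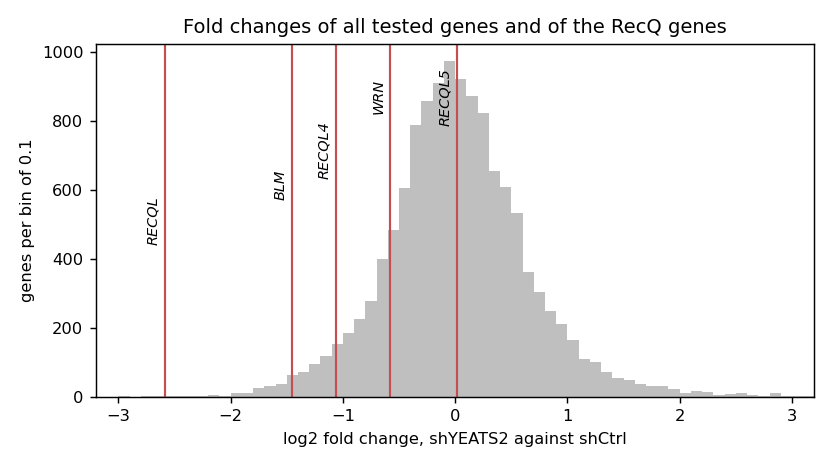
Number of genes per bin of 0.1 in log2 fold change (shYEATS2 against shCtrl) for the 12676 genes, of which 25 lie outside the axis, with red lines at the 5 RecQ genes. RECQL (-2.59) lies in the far left tail, BLM (-1.45), RECQL4 (-1.06) and WRN (-0.58) between it and the centre, and RECQL5 (0.02) at the centre.

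Levels can be compared between the members only per length of transcript, here scaled reads per kb of the canonical transcript. In the control cells RECQL led with 1675 ± 32.3, followed by RECQL4 with 726.6 ± 33.8, RECQL5 with 377.4 ± 13.2, BLM with 339.3 ± 30.1 and WRN with 124.5 ± 8.59 scaled reads per kb (SD, n = 2). BLM and RECQL5 were not separated beyond their spread, since the gap between the higher BLM library (360.6) and the lower RECQL5 library (368.0) was smaller than the spread of the BLM libraries. RECQL lay at percentile 85.6 of all genes with a length and WRN at percentile 24.1. In the knockdown cells the order was RECQL5 with 381.5 ± 33.8, RECQL4 with 348.2 ± 41.7, RECQL with 279.5 ± 115, BLM with 124.0 ± 34.1 and WRN with 83.5 ± 7.44 scaled reads per kb. The first 3 of these were not separated, because RECQL4 ranged from 318.8 to 377.7, RECQL5 from 357.6 to 405.5 and RECQL from 198.1 to 361.0. The RECQL levels carry a further limit. Of its transcript, 41.8% is also exonic in PYROXD1 on the other strand, and how reads there were counted is not known. The per-kb levels of RECQL, its percentile and its rank among the members may therefore be off.

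The make-up of the family differed accordingly, with the same limit on the RECQL level. RECQL held 52.3% and 51.0% of the summed per-kb level of the 5 genes in the control libraries and 26.1% and 18.8% in the knockdown libraries. RECQL5 held 11.3% and 11.9% in the control libraries and 29.4% and 34.0% in the knockdown libraries. The summed scaled reads of the family, not divided by length and so not the base of these shares, were 13180 and 13130 in the control libraries. In the knockdown libraries they were 5730 and 4387.

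The RECQL gene lies on the minus strand at chr12:21621844-21654603 (GRCh37, the build of the counted reads) and its canonical transcript has 15 exons and 3745 bases. The other members lie at chr15:91260577-91359396 on the plus strand (BLM), chr8:145736671-145743229 on the minus strand (RECQL4), chr8:30891304-31033654 on the plus strand (WRN) and chr17:73622925-73663269 on the minus strand (RECQL5). All 5 start head to head with a gene on the other strand within 1000 bases, and 3 of these partners were in the table. GOLT1B, a Golgi transport protein, starts 112 bases from RECQL and had 4622 and 4263 scaled reads in the control libraries and 4749 and 5086 in the knockdown libraries. GOLT1B thus lay slightly above the controls in both knockdown libraries while RECQL lay far below them, with a log2 fold change of 0.15 that was not called (FDR = 0.246, edgeR quasi-likelihood test, Benjamini-Hochberg adjusted). LRRC14, which starts 147 bases from RECQL4, had a log2 fold change of 0.14, and SAP30BP, which starts 62 bases from RECQL5, of 0.05, and neither was called.

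At its other end RECQL overlaps PYROXD1, an oxidoreductase gene on the plus strand, tail to tail. The canonical transcripts share 1567 exonic bases, which is 41.8% of the RECQL transcript and 38.5% of the PYROXD1 transcript. PYROXD1 had 486 and 504 scaled reads in the control libraries and 294 and 272 in the knockdown libraries. The groups did not overlap, and PYROXD1 fell by 0.81 on the log2 scale (standard error 0.13, FDR = 0.00384, edgeR quasi-likelihood test, Benjamini-Hochberg adjusted). The kit named in the labels does not, in its standard form, mark the strand of a read, whereas the default setting of HTSeq counts by strand, so how reads from the shared bases were assigned is not known from the table. Either count may hold reads of the other gene, and how many was not tested. In the control libraries the PYROXD1 count was far below that of RECQL.

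**Figure D3:**
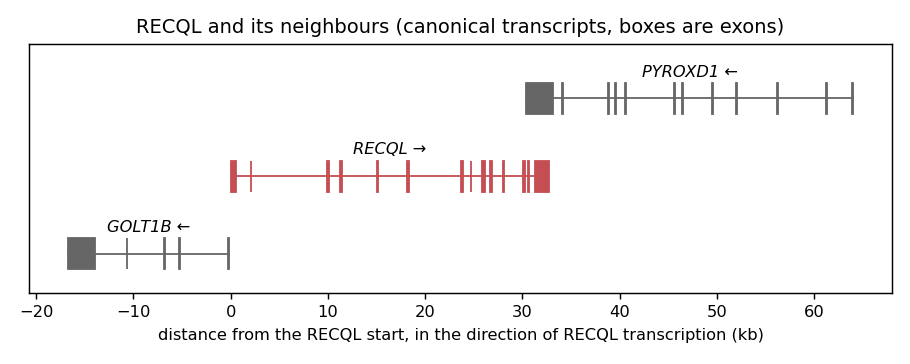
Exons (boxes) of the canonical transcripts of GOLT1B, RECQL and PYROXD1 by distance from the RECQL start in kb, with arrows for the direction of transcription. GOLT1B starts 112 bases upstream of RECQL and runs away from it. The last exon of PYROXD1 shares 1567 bases with the last and the next-to-last exon of RECQL.

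Of the 5 genes, 3 matched the RefSeq promoter table used here (RECQL, BLM and RECQL5), and their promoters are shown. RECQL4 and WRN, which were also lower in the knockdown, are missing from this comparison. Each is 250 bases before and 50 bases after the RefSeq start in GRCh38.p14, at chr12:21501586-21501885 (RECQL, minus strand), chr15:90717096-90717395 (BLM, plus strand) and chr17:75667105-75667404 (RECQL5, minus strand), written along the gene. Capitals mark CCAAT boxes (CCAAT), elements bound by NF-Y, and the ETS word CCGGAAG, each on either strand, so ATTGG and CTTCCGG are the same words read from the other strand.
RECQL: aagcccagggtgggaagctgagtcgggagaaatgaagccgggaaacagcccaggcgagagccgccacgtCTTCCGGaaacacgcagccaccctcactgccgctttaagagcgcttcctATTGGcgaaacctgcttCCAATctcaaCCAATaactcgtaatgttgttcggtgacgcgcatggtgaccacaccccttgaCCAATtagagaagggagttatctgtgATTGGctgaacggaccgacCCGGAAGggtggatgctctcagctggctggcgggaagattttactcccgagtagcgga
BLM: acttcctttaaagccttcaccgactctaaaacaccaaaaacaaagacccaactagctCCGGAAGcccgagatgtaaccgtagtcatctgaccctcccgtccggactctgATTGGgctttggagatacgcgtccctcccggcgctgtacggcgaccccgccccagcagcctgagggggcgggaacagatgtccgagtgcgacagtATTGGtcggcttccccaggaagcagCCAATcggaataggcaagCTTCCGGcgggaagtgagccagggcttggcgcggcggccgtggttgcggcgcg
RECQL5: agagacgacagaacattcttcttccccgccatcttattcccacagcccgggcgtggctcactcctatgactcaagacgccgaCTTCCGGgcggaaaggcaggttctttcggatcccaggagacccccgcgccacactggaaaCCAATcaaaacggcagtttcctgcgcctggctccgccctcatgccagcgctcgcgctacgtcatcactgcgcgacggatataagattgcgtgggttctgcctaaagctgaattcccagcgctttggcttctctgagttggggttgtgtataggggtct

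The RECQL promoter holds 5 CCAAT boxes, the BLM promoter 3 and the RECQL5 promoter 1. At least 1 CCAAT box was found in 34.6% of 35116 RefSeq promoters of the same length, at least 3 in 3.26% and at least 5 in 0.359%. The word CCGGAAG was found at 2 places in RECQL, 2 in BLM and 1 in RECQL5. Of all promoters, 10.3% hold at least 1 and 1.74% at least 2. The strict E2F words TTTCCCGC, TTTCGCGC, TTTGCCGC and TTTGGCGC, on either strand, were in none of the 3 (3.32% of all promoters hold one). The same words without the first T, a search chosen after the sequences had been seen, were found 3 times in BLM, 1 time in RECQL and not in RECQL5. At least 1 was in 13.0% of all promoters and at least 3 in 0.214%. One of the BLM matches shares a base with its second ETS word and another overlaps a GC box, and a GC box of RECQL5 overlaps its ETS word. The cell cycle word TTTGAA (15.2% of all promoters) and the NRF1 word GCGCATGC (3.05%) were in none of the 3. The GC box GGGCGG was found 2 times each in BLM and RECQL5 and not in RECQL (45.0% of all promoters hold at least 1 and 26.7% at least 2). The YY1 word AAGATGGC was found 1 time, in RECQL5 (2.89%). The 3 sequences have GC contents of 56.3%, 61.3% and 57.7% in the order shown, against a median of 58.7% over all promoters. These shares are over all RefSeq promoters searched, not over the genes with counted reads. Whether any of these words bears on the fold changes was not tested.

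A word of 7 bases in 3′ untranslated regions, AAGTTCA, had come up in an earlier search of these same fold changes, so its presence in a gene picked for its fall is not independent of that search. RECQL carries it at 2 places in a 3′ untranslated region of 1284 bases, at bases 258 to 264 and 567 to 573. They are shown with 10 bases on each side and the word in capitals.
RECQL site 1: atttgagaatAAGTTCAtacaatcgtc
RECQL site 2: atttgagaatAAGTTCAtgtaattgtc
The sites start 309 bases apart, and 24 of the 27 bases shown are identical. WRN carries 1 copy in 3036 bases, and BLM, RECQL4 and RECQL5 carry none. Of 11388 genes with an annotated 3′ untranslated region, 14.4% carry the word and 2.77% carry at least 2 copies. The joined word CAAGTTCA and the word CAAGTTC were in none of the 5 members.

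RecQ proteins work with partners, and 18 genes encoding them were followed as a fixed list. This list and those below were chosen with earlier results of these data known, so their counts may not be independent of those results. All 18 were in the table, 10 were called lower and none higher, and the list's median log2 fold change was -0.75. The lower calls are 55.6% of the list, against 12.5% of all genes. Both knockdown libraries lay below both control libraries for 17 of the 18, called or not, against 39.8% of all genes. They lay above both for 1 partner, against 39.7% of all genes. Fewer partners were called lower without shCtrl replicate 1, a fit in which fewer of all genes were called lower too.

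Among the BLM partners, RMI1, the scaffold that joins BLM to its topoisomerase, had 1729 and 1568 scaled reads in the control libraries and 779 and 465 in the knockdown libraries. The groups did not overlap, and RMI1 fell by 1.41 on the log2 scale (FDR = 0.00382, edgeR quasi-likelihood test, Benjamini-Hochberg adjusted). The other subunits of the same complex did not pass: TOP3A, the topoisomerase, had a log2 fold change of -0.40 (FDR = 0.0228) and RMI2 of -0.42 (FDR = 0.121) in the same test. EXO1, a nuclease that resects broken ends, fell by 1.11 on the log2 scale. DNA2, which resects together with BLM or WRN, fell by 1.02.

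The RECQL4 partner MCM10, a replication initiation factor, had 2861 and 2419 scaled reads in the control libraries and 995 and 490 in the knockdown libraries. MCM10 was the lowest partner, and it fell by 1.83 on the log2 scale (FDR = 0.00392, edgeR quasi-likelihood test, Benjamini-Hochberg adjusted). TOPBP1, another initiation and checkpoint factor, fell by 0.79.

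The WRN partners were mixed in their calls at this threshold. FEN1, the flap endonuclease that WRN stimulates, had 3787 and 3270 scaled reads in the control libraries and 1322 and 772 in the knockdown libraries. It fell by 1.75 on the log2 scale (FDR = 0.00227, edgeR quasi-likelihood test, Benjamini-Hochberg adjusted). WRNIP1, which protects forks, fell by 1.12. XRCC5, the Ku80 subunit of the end-binding Ku dimer, fell by 0.70 and PARP1, a sensor of DNA breaks, fell by 0.63. XRCC6, the Ku70 subunit, had a log2 fold change of -0.24 and the telomere protein TERF2 of -0.21, and neither was called. Of the 3 subunits of RPA, which coats single-stranded DNA and stimulates RecQ unwinding, RPA3 fell by 0.90, while RPA1 (-0.39) and RPA2 (-0.55) were not called. POLR2A, the largest subunit of the polymerase that RECQL5 binds, had a log2 fold change of 0.28 and was not called.

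Other DNA helicases served as a further list of 23 genes, of which 22 were in the table and HFM1 was not listed. Of these, 9 were called lower and none higher (12.5% and 12.9% of all genes), with a median log2 fold change of -0.69. With edgeR's exactTest, the function of the study, 14 were called lower, while the lower calls over all genes rose from 1581 to 2497. The replicative MCM2 to MCM7 genes, whose products form the core of the replication fork helicase, had a median of -1.22, and 4 of the 6 were called lower. The other 16 had a median of -0.39, and 5 were called lower. PIF1, which unwinds G-quadruplexes, fell by 1.62 on the log2 scale and was the lowest of the list. Of the 4 helicases of the XPD-like iron-sulfur family in the list, BRIP1, which acts in crosslink repair, fell by 0.92 and DDX11 fell by 0.80, while RTEL1 (-0.56) and ERCC2 (0.24) were not called. The remodellers SMARCAL1 (-0.36), HLTF (-0.42) and ZRANB3 (-0.10) and ERCC3 (-0.10), which like ERCC2 is a subunit of TFIIH, were not called.

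**Figure D4:**
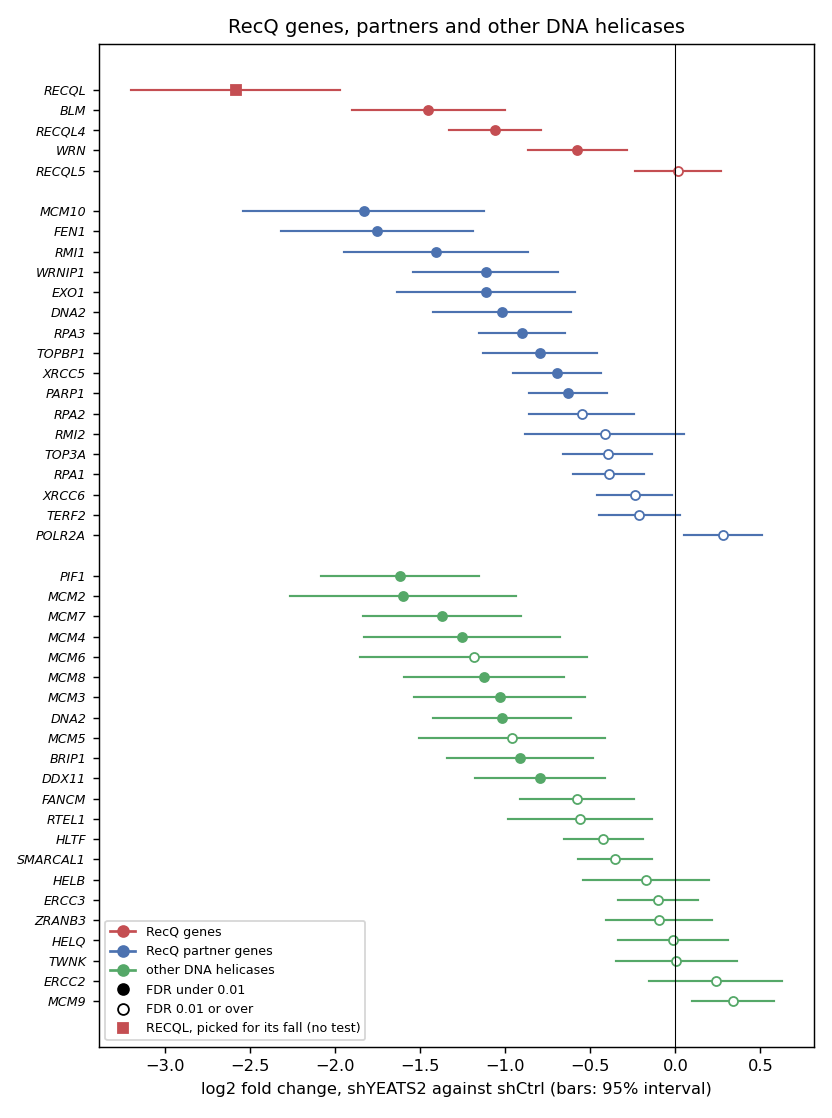
Log2 fold change (shYEATS2 against shCtrl) with its 95% interval for the 5 RecQ genes, 17 of the 18 partner genes and 22 other DNA helicases, with filled points for genes called lower and a square for RECQL, which was picked for its fall. Most points lie left of 0, from RECQL (-2.59) to MCM9 (0.34), and no gene was called higher. DNA2 is in both of the longer lists.

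Genes of proliferating cells were lower in the same libraries. Of 12 such genes, 11 were called lower and none higher (12.5% and 12.9% of all genes). Their median log2 fold change was -1.45, and the exception was E2F1 (FDR = 0.0536, edgeR quasi-likelihood test, Benjamini-Hochberg adjusted). Their summed scaled reads were 126600 and 134100 in the control libraries and 50720 and 43500 in the knockdown libraries. Whether the RecQ values follow from fewer dividing cells was not tested.

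The 2 knockdown libraries were not alike in these genes. All 5 members had fewer scaled reads in knockdown replicate 2 than in replicate 1, with a log2 ratio of replicate 2 to replicate 1 of -0.87 for RECQL, -0.57 for BLM, -0.24 for RECQL4 and -0.18 for both WRN and RECQL5. Only 0.5996% of all genes had a ratio as low as that of RECQL and 2.67% as low as that of BLM. The median of this ratio was -0.37 over the partners, -0.38 over the other helicases, -0.38 over the proliferation genes and -0.00413 over all genes, whose 5th to 95th percentiles ran from -0.45 to 0.43. In the control libraries the ratio for the members ran from -0.18 (BLM) to 0.14 (WRN). The YEATS2 transcript had a ratio of 0.02 in the knockdown libraries. Why the replicates differed in RECQL was not tested.

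**Figure D5:**
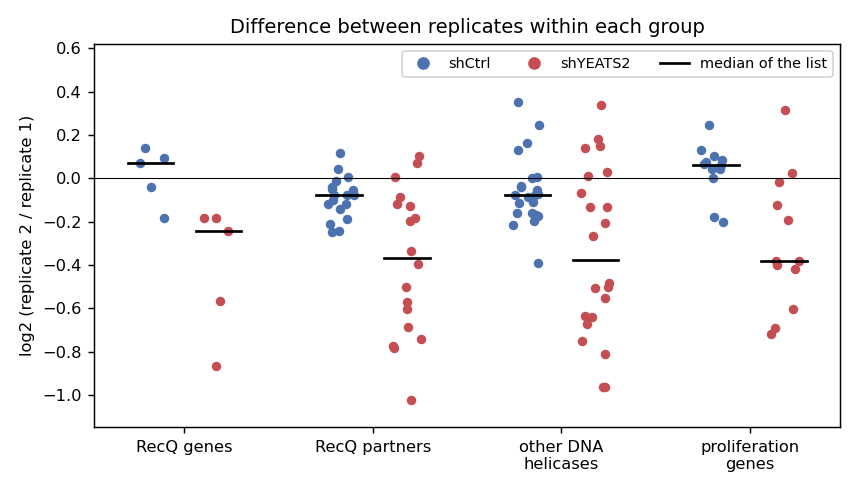
Log2 ratio of replicate 2 to replicate 1 within shCtrl and within shYEATS2 for each gene of 4 lists, with a black bar at the median of each list. In shYEATS2 all 5 RecQ genes lie below 0 (median -0.24) and the medians of the other lists lie at -0.37 to -0.38, whereas in shCtrl the medians lie between -0.08 and 0.07.

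The genes with the profiles most like RECQL over the 4 libraries, by Euclidean distance of log2 scaled reads (pseudocount 1) centred over the libraries, were RIBC2 (distance 0.265), AHNAK2 (0.270) and WDR5 (0.293). For BLM they were PRPF19 (0.045), CDC7 (0.0546), a kinase that fires replication origins, and PLK4 (0.0704), a kinase of centriole duplication. These are descriptions over 4 libraries.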

How the data were processed

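Per the paper's methods, the authors used the RNA-Seq unified mapper against hg19 for the H1299 reads and HTSeq at default settings for counting per gene, so the deposited values are raw read counts, and the submitters' processing notes name HTSeq 0.6.1p1. These notes also name TopHat2 and Bowtie2 with no role, so the sources differ on the mapper. The gene annotation used for counting is not given in the sources used here. The table lists 12676 genes, each with at least 101 reads in some library. The authors' own log2 fold changes, p-values and FDR values in the same table were not used. ChIP-seq samples were not analysed here.

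Counts were scaled with TMM factors to the mean effective library size and tested with edgeR 4.0.16 (quasi-likelihood test, R 4.3.3) at an FDR under 0.01 over all genes that reached 10 reads in 2 or more libraries, which all 12676 did. The common coefficient of biological variation was 0.107 and the standard error of log2 fold changes had a median of 0.123. Replicates differed by more than counting noise (chi-square per degree of freedom 17.9 for shCtrl and 38 for shYEATS2), so no library was a copy of another. The scripts were tested on simulated data. Loci, transcript lengths and 3′ untranslated regions came from GENCODE release 44 lifted to GRCh37, where 12465 of the 12676 identifiers (98.3%) matched, and promoters from RefSeq in GRCh38.p14, where RECQL, BLM and RECQL5 matched.

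The members and the gene lists were chosen with earlier results of these data known. Genes named were YEATS2, the 5 members, the listed genes, the neighbours of members on the genome, the genes ranked next to RECQL and those with the nearest profiles. The values of 2 listed genes are not reported here, although counts and medians include them. Alternatives were DESeq2 1.42.0, edgeR's exactTest, other scalings and count filters, an FDR of 0.05, a term for the replicate number and each library left out.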

Additional observations from a re-analysis of the deposited data

How the results depend on the processing

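The decreases of BLM and RECQL4 kept their direction and their side of the threshold under all 13 alternatives. Not all of these could have changed that result. Dropping the count filter removed no gene and so repeated the main fit. The looser FDR threshold reused the main fit, where a gene called at the stricter threshold stays called. RECQL, picked for its fall, is given by its values alone. Over the alternatives that used all libraries, RECQL ranged from -2.64 to -2.47, BLM from -1.47 to -1.33 and RECQL4 from -1.07 to -0.94 on the log2 scale. With each library left out, the ranges were -3.08 to -2.21 for RECQL, -1.76 to -1.19 for BLM and -1.19 to -0.94 for RECQL4. A group reduced to 1 library is assumed to vary like the other group.

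WRN kept its direction but lost its call with library totals (-0.46, FDR = 0.0210, edgeR's quasi-likelihood test), upper-quartile scaling (-0.56, FDR = 0.0107) and a mean count of at least 100 (-0.57, FDR = 0.0105), so 2 of the 4 members other than RECQL were called there, against 3. Leaving out a library gave WRN values from -0.67 to -0.49 (FDR 0.00717 to 0.0600) and 2 or 3 of these 4 members called. RECQL5 was not called under any alternative, with values from -0.08 to 0.10 with a library left out, of which -0.02 without shCtrl replicate 1 and -0.077 without shYEATS2 replicate 1 had the other sign.

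The number of genes called lower was 1581, against 2497 with exactTest, 3011 at an FDR under 0.05, 850 without shCtrl replicate 1 and 919 without shCtrl replicate 2, and 850 to 2024 over all leave-one-out fits. The number called higher was 1630, against 2596, 3093, 775 without shCtrl replicate 1, 882 without shCtrl replicate 2 and 992 without shYEATS2 replicate 2, and 775 to 1971 over all leave-one-out fits. Other DNA helicases called lower numbered 9, against 14 with exactTest and 15 at an FDR under 0.05. Partners called lower numbered 10, and 6 to 13 with a library left out.

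Deviations of same-numbered libraries from their group means correlated at 0.403, but with 2 pairs, and no label that ties a number to a shared culture or day, the libraries share only a number. With the replicate block, 2715 genes were called lower, 2742 higher and 14 other DNA helicases lower, and 3 of the 4 RecQ members other than RECQL were called lower, as without it. The cause of these differences was not tested. The members had at least 523 scaled reads in every library. For BLM, RECQL and the other members the spread between libraries, measured on 2 libraries a group, thus limits these values more than depth. The common coefficient of variation of 0.107 is a value for all genes. The standard errors of RECQL (0.26) and BLM (0.19) lay above the median of 0.123 over all genes. Those of RECQL4 (0.115), WRN (0.122) and RECQL5 (0.107) did not.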
